A study of Mus musculus with 6 samples.

Results

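The miR-15/16 family is a group of microRNAs (miRNAs) whose guide strands carry the same seed, the stretch at the 5′ end that pairs with target mRNAs. Its members were taken by name from the deposited miRNA table as every arm or copy of mmu-miR-15a, mmu-miR-15b, mmu-miR-16, mmu-miR-195a, mmu-miR-322 and mmu-miR-497a (mmu marks mouse and is left out of most names here). These 6 base names gave 10 of the 778 features in the table, 6 of them 5p arms and 4 of them 3p arms.

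Small RNA was sequenced from mature sperm of the cauda epididymis, the end of the duct where sperm are stored, in C57BL/6 male mice. All mice were 8 weeks old per the labels. There were 3 samples from mice brought into a depressed state by stress (stress samples) and 3 samples from normal mice (normal samples). The labels name no mutant allele, no agent and no stress protocol, and do not say how many animals gave each sample, so the replicates may be technical and a p-value here speaks only for the scatter among the 6 samples.

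Mature sperm are largely silent in transcription, and the small RNAs they carry come from spermatogenesis and from vesicles taken up along the epididymis. In somatic cells the miR-15/16 guide strands repress D-type and E-type cyclins and BCL2, and so slow the cell cycle and favour apoptosis. The genes lie in pairs. Mir15a and Mir16-1 lie in the noncoding gene Dleu2, a region often deleted in human chronic lymphocytic leukaemia. Mir15b and Mir16-2 lie in Smc4, a condensin gene. Mir497 and Mir195a form a cluster known from postnatal heart muscle, and Mir322, the mouse counterpart of human miR-424, lies beside Mir503 on the X chromosome and is known from muscle differentiation.

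The mature sequences are shown because the family is defined by them, and because near-identical sequences can take each other's reads. They are RefSeq sequences of build GRCm38.p6, written 5′ to 3′, with the seed (bases 2 to 8) in capitals. All 10 features matched a RefSeq mature sequence of the same name, letter for letter.
miR-16-5p: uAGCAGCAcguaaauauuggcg
miR-195a-5p: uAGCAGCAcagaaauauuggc
miR-15a-5p: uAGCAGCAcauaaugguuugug
miR-15b-5p: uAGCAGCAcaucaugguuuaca
miR-497a-5p: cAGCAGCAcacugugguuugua
miR-322-5p: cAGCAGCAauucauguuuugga
The seed AGCAGCA was found in 10 of 1679 mature mouse miRNAs of the RefSeq table (0.596%). Among the features measured, 6 carried it, all 6 of them guide strands of the family and 0 outside it. miR-16-5p and miR-195a-5p differed by 2 bases over their first 21 (G10A and U11G, miR-16-5p first, counted from the 5′ end). miR-15b-5p and miR-15a-5p differed by 4 bases (C12A, A20G, C21U and A22G, miR-15b-5p first). All 60 values of the family were whole numbers within 0.001, against 92.0% of the values in the whole table. Whole totals do not show how reads that match several members were assigned.

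The positions were read from the same RefSeq build, since the build the authors mapped to is not given in the sources used here. miR-15b-5p lies at chr3:69009775-69009796 on the plus strand, in an intron of Smc4 and on its strand, and its hairpin is 66 bases from that of Mir16-2. miR-16-5p comes from Mir16-2 in the same intron (chr3:69009918-69009939) and from Mir16-1 at chr14:61631936-61631957 on the minus strand, in an intron of Dleu2, and its reads cannot be divided between these loci. miR-15a-5p lies beside it at chr14:61632075-61632096. miR-195a-5p (chr11:70235062-70235082) and miR-497a-5p (chr11:70234730-70234751) lie on the plus strand, with 241 bases between their hairpins, outside any other gene of the GENCODE annotation of that build. miR-322-5p lies at chrX:53054306-53054327 on the minus strand, also outside other genes, with 200 bases between the hairpins of Mir322 and Mir503.

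The stress samples held 1045922, 1522849 and 1010203 miRNA reads and the normal samples 1083237, 1112771 and 3067208, so normal replicate 3 was the deepest. Normal replicate 3 also stood apart in its ratio of miRNA reads to estimated reads of tRNA-derived small RNAs, at 2.67 against 0.367 to 0.835 in the other samples. Male germ cell markers were present, with reads in every sample for 21 of 24 features. In bulk RNA, fewer cells of a type and less RNA per cell cannot be told apart. Of 236 miRNAs tested, 6 were higher and 24 lower in stress past an adjusted p of 0.05 (12.7% called in either direction, 2.54% higher and 10.2% lower). The balance of these calls moved with the scaling and the tool, with 16 higher and 28 lower with RLE scaling in edgeR, 17 and 30 in DESeq2, 14 and 31 in limma-voom, 96 and 10 with the miRNA total in edgeR, 16 and 17 with the total outside let-7 and miR-148a-3p, and 3 and 3 with the total of the deposited tables.

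The family was a small part of the sperm miRNA load. Its features together held 215, 223 and 180 reads in stress replicates 1 to 3, against 77, 67 and 287 reads in normal replicates 1 to 3. Scaled to 1000000 miRNA reads that was 205.6, 146.4 and 178.2 in stress samples, against 71.1, 60.2 and 93.6 in normal samples. Every stress sample lay above every normal sample. The family share was 0.0177% ± 0.00296 of the miRNA reads in stress samples and 0.0075% ± 0.0017 in normal samples (SD, n = 3 each; exact two-sided permutation p = 0.1, the smallest that 3 samples against 3 allow). As a share of the reads outside let-7 and miR-148a-3p, which take most of the miRNA reads, it was 0.0453% ± 0.00825 in stress and 0.0286% ± 0.00574 in normal samples, again without overlap (exact permutation p = 0.1, n = 3 each). As a share of all miRNA reads, 134 of the 236 tested miRNAs (56.8%) lay higher in every stress sample than in every normal sample and 13 (5.51%) lower. As a share of the reads outside let-7 and miR-148a-3p, this held for 60 of the 223 tested miRNAs that are neither (26.9%), with 33 lower (14.8%).

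Levels of single miRNAs are given below as CPM, counts per 1000000 reads after scaling by the trimmed mean of M values (TMM), which sets libraries equal over most miRNAs. The mature forms are 21 or 22 bases long, so CPM needs no correction for length. How well each sequence is captured in a library was not measured. Orders between different miRNAs below are therefore orders of reads and may not be those of RNA amounts. miR-16-5p, the guide strand made from the Mir16 copies, ranked 160 of 778 by mean CPM over the 6 samples, miR-195a-3p 166, miR-15b-5p 182 and miR-195a-5p 183. This order did not hold in each sample, since miR-195a-3p lay above miR-16-5p in all 3 normal samples and miR-15b-5p lay above it in stress replicate 1. These 4 passed the filter on low counts and were tested; the other 6 did not and are described by their values.

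**Figure D1:**
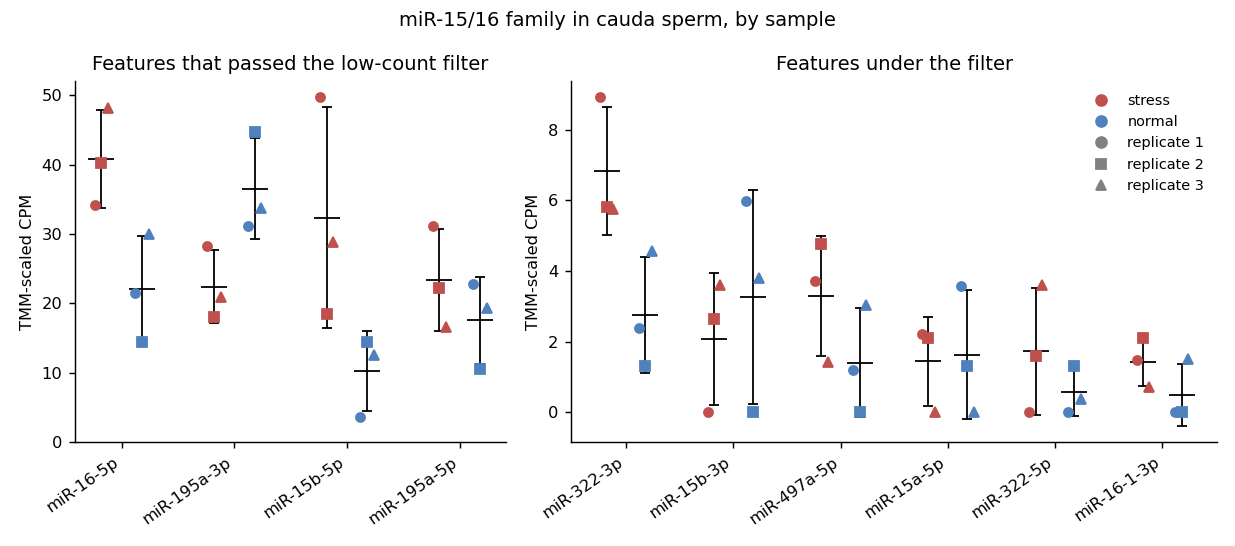
TMM-scaled CPM of the 10 family features in each sample (points; black bars, mean ± SD, n = 3 per group), with the 4 tested features on the left and the 6 features under the filter on the right, on separate linear scales. Stress samples lie above all normal samples for miR-16-5p, miR-15b-5p and miR-322-3p, and below them for miR-195a-3p. Of all 236 tested miRNAs, 18.6% lie above and 20.8% below in the same way.

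mmu-miR-15b-5p had the largest fold change of the 4. This guide strand from the Smc4 intron had 67, 35 and 40 reads in stress replicates 1 to 3, against 3, 11 and 33 reads in normal replicates 1 to 3. It stood at 49.7, 18.5 and 28.8 CPM in stress samples, against 3.59, 14.5 and 12.5 CPM in normal samples. Stress replicate 1 was the highest and normal replicate 1 the lowest, and the groups did not overlap. The margin between stress replicate 2 and normal replicate 2 was within counting error, with exact 95% Poisson intervals of 12.9 to 25.7 and 7.23 to 25.9 CPM, which cover counting error only. The log2 fold change was 1.60 ± 0.52 (SE) and missed the threshold in edgeR's quasi-likelihood test (adjusted p = 0.054, unadjusted p = 0.010). The call depended on the tool and the scaling, with 1.64 (adjusted p = 0.045) with RLE scaling in edgeR, 1.67 (adjusted p = 0.023) in DESeq2, and 1.5 (adjusted p = 0.11) in limma-voom. All miRNAs were called at 18.6% with RLE scaling (6.78% higher, 11.9% lower) and at 19.9% in DESeq2 (7.2% higher, 12.7% lower). Without stress replicate 2 it was at 1.79 (adjusted p = 0.047), and without stress replicate 1 or normal replicate 1 at 1.07 (adjusted p = 0.20) and 1.27 (adjusted p = 0.13), all in edgeR. The fit without stress replicate 2 called 26 of 236 miRNAs, 7 higher and 19 lower.

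mmu-miR-16-5p, the best-known member and one of the abundant miRNAs of red blood cells, had 46, 76 and 67 reads in stress samples, against 18, 11 and 79 reads in normal samples. Its level was 34.2, 40.2 and 48.2 CPM in stress samples, against 21.5, 14.5 and 30.0 CPM in normal samples. The groups did not overlap, and the closest pair was stress replicate 1 and normal replicate 3. The margin of that pair was within counting error, with exact Poisson intervals of 25.0 to 45.6 and 23.7 to 37.4 CPM. The log2 fold change of 0.84 ± 0.35 (SE) did not pass in edgeR (adjusted p = 0.13, unadjusted p = 0.035).

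mmu-miR-195a-5p, the guide strand of the chromosome 11 cluster, had 42, 42 and 23 reads in stress samples, against 19, 8 and 51 reads in normal samples. It stood at 31.2, 22.2 and 16.6 CPM in stress samples, against 22.7, 10.5 and 19.4 CPM in normal samples. The groups overlapped, and the log2 fold change was 0.38 ± 0.40 (SE; edgeR adjusted p = 0.54). It was 0.01 without stress replicate 1. Its neighbour miR-497a-5p held 5, 9 and 2 reads in stress samples, against 1, 0 and 8 reads in normal samples.

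miR-195a-3p, the arm opposite miR-195a-5p and without the family seed, had a fold change of opposite sign. It had 38, 34 and 29 reads in stress samples, against 26, 34 and 89 reads in normal samples. Its level was 28.2, 18.0 and 20.9 CPM in stress samples, against 31.1, 44.8 and 33.8 CPM in normal samples. All stress samples lay below all normal samples, by a narrow margin at replicate 1. That margin was within counting error, with exact Poisson intervals of 20.0 to 38.7 CPM in stress and 20.3 to 45.6 CPM in normal replicate 1. The log2 fold change of −0.70 ± 0.33 (SE) did not pass in edgeR (adjusted p = 0.16). It was 0.053 with library sizes set to the miRNA total.

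Of the 4 tested features, 0 therefore passed in edgeR, against 12.7% of all miRNAs tested, and 2 of the 4 had an unadjusted p under 0.05 (miR-15b-5p and miR-16-5p), against 32.2% of all. DESeq2 called 1 of the 4, and limma-voom 0. The family's median log2 fold change was 0.61, with 3 of 4 positive, beside a median of 0.00063 over the 236. On TMM-scaled CPM the groups did not overlap for 3 of the 4, 2 higher and 1 lower, against 39.4% of all tested miRNAs (18.6% higher, 20.8% lower). For each of these 3 family features the margin between the closest stress and normal samples was within counting error.

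The scaling matters for these values, because the TMM factors were 1.29, 1.24 and 1.38 in stress samples and 0.772, 0.683 and 0.859 in normal samples. With the miRNA total as library size the median log2 fold change over the 236 was 0.76. In that edgeR fit miR-15b-5p at 2.34 (adjusted p = 0.0096) and miR-16-5p at 1.56 (adjusted p = 0.012) passed, among 44.9% of all miRNAs called, 40.7% higher and 4.24% lower. Relative to that shift miR-15b-5p was at 1.58 and miR-16-5p at 0.80, close to their values with TMM. This closeness is by construction, because a change of library size alone moves all features nearly alike. Scaled to the total of the 3 deposited tables, the median of all was 0.25 and miR-15b-5p was at 1.72 (edgeR adjusted p = 0.34). With the total outside let-7 and miR-148a-3p it passed at 1.78 (edgeR adjusted p = 0.048), where 14% of all were called, 6.78% higher and 7.2% lower.

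**Figure D2:**
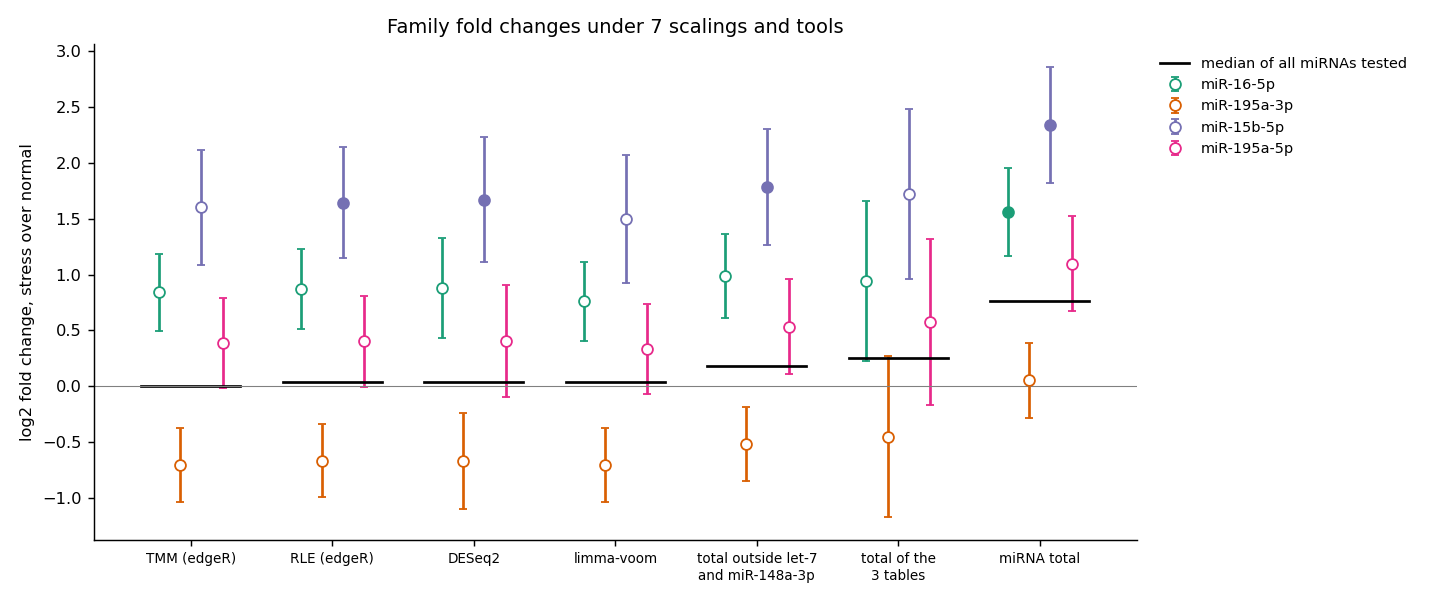
Log2 fold change (stress over normal, ± SE) of the 4 tested family features under each tool and scaling; filled points have an adjusted p under 0.05 and black lines mark the median of all miRNAs tested. The order miR-15b-5p, miR-16-5p, miR-195a-5p, miR-195a-3p from high to low is the same in every column shown, while the median of all miRNAs lies between 0.00063 and 0.76. All columns use the same counts, and a change of scaling alone moves all features nearly alike, so the shared order is no test of stability.

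The order of read levels within the family differed between the groups. In stress samples the means were 40.9 ± 7.06 CPM for miR-16-5p, 32.3 ± 15.9 CPM for miR-15b-5p, 23.3 ± 7.38 CPM for miR-195a-5p and 22.4 ± 5.27 CPM for miR-195a-3p (SD, n = 3). In normal samples they were 36.5 ± 7.23 CPM for miR-195a-3p, 22.0 ± 7.77 CPM for miR-16-5p, 17.5 ± 6.30 CPM for miR-195a-5p and 10.2 ± 5.81 CPM for miR-15b-5p. In stress samples no neighbours in this order were farther apart than the larger of their SDs. In normal samples miR-195a-3p stood above miR-16-5p by more than the SD of either, and its lowest sample lay above the highest of miR-16-5p. miR-195a-5p also stood above miR-15b-5p by more than either SD, but their samples overlapped, and miR-16-5p and miR-195a-5p did not differ beyond their SDs.

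The make-up of the family reads needs no scaling between libraries. miR-16-5p took 21.4%, 34.1% and 37.2% of the family reads in stress samples, against 23.4%, 16.4% and 27.5% in normal samples. The groups overlapped (30.9% ± 8.38 in stress and 22.4% ± 5.61 in normal samples, SD, n = 3 each, exact permutation p = 0.3). miR-15b-5p took 31.2%, 15.7% and 22.2% in stress samples, against 3.90%, 16.4% and 11.5% in normal samples, so stress replicate 2 lay under normal replicate 2. miR-15b-5p and miR-16-5p can come from the same Smc4 intron, and their ratio in reads varied widely, at 1.46, 0.461 and 0.597 in stress samples against 0.167, 1 and 0.418 in normal samples.

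**Figure D3:**
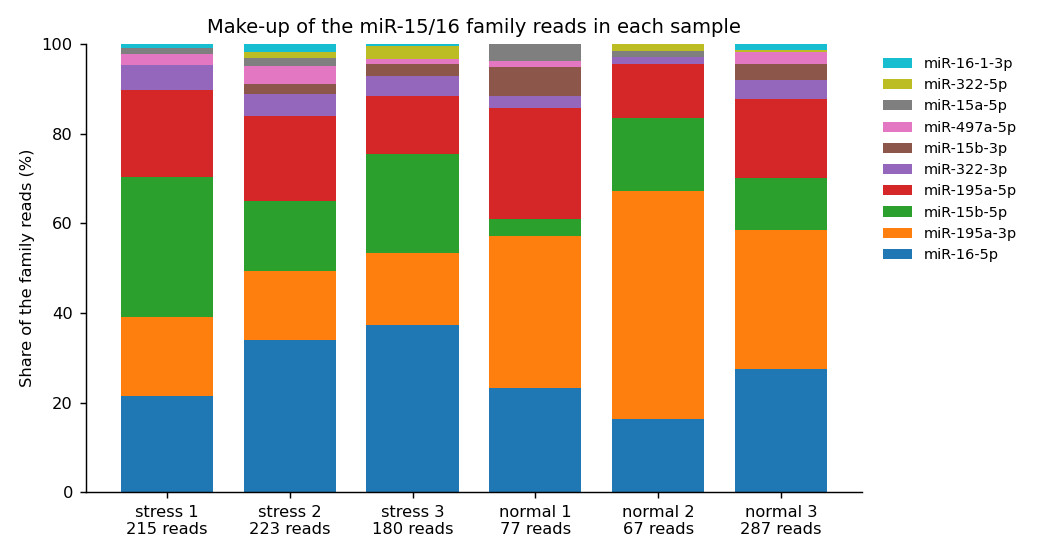
Share of each family feature in the family reads of each sample (stacked bars, percent; the number of reads is under each bar). The miR-195a-3p band holds 15.2% to 17.7% in stress samples and 31.0% to 50.7% in normal samples.

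The arms differed in their share of the family. The 3p arms, which do not carry the family seed, made up 24.2%, 24.2% and 23.9% of the family reads in stress samples, against 42.9%, 52.2% and 40.1% in normal samples. The stress samples lay close together and below every normal sample. The 3p share was 24.1% ± 0.181 in stress and 45.1% ± 6.38 in normal samples (SD, n = 3 each; exact two-sided permutation p = 0.1, the smallest this design allows). The spread of the stress samples was smaller than counting error, with 95% Wilson intervals of 18.9% to 30.3%, 19.1% to 30.2% and 18.2% to 30.6%, so their closeness is no measure of precision. The 5p arms summed to 121.0, 89.4 and 98.6 CPM in stress samples, against 52.6, 42.1 and 65.3 CPM in normal samples. The 3p arms summed to 38.6, 28.6 and 30.9 CPM in stress samples, against 39.5, 46.1 and 43.7 CPM in normal samples.

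Most 3p reads came from miR-195a, whose hairpin from RefSeq (chr11:70235042-70235135, plus strand) is shown with the 5p and the 3p arm in capitals, because both arms of this hairpin were abundant enough to be tested.
Mir195a hairpin: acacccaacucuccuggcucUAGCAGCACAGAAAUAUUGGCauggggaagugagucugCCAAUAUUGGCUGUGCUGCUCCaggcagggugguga
Within miR-195a the 3p arm held 47.5%, 44.7% and 55.8% of the reads in stress samples, against 57.8%, 81% and 63.6% in normal samples. The groups did not overlap, but stress replicate 3 (29 of 52 reads, 95% Wilson interval 42.3% to 68.4%) and normal replicate 1 (26 of 45 reads, 43.3% to 71.0%) were close. This share was chosen after its values were seen and was not tested. Among 40 hairpins with both arms tested, the 3p share did not overlap between the groups for 23 (57.5%), 13 of them lower in stress (32.5%), and the median difference was 0.01 percentage points. The difference of −18.1 points at miR-195a was the third lowest of the 40, whose range was −26.5 to 37.8 points. Without normal replicate 2 it was −11.3 points and the fifth lowest. Outside miR-195a the family's 3p share was 11.6% ± 1.73 in stress and 14.5% ± 9.35 in normal samples (SD, n = 3 each), with overlap, from 1 to 26 3p reads per sample.

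**Figure D4:**
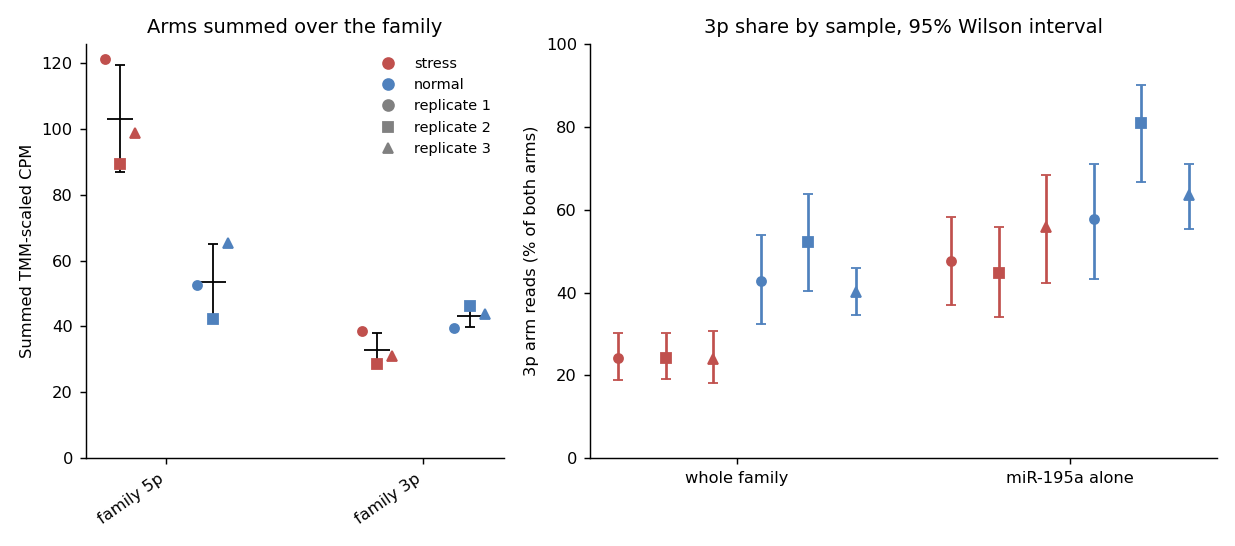
Left, summed TMM-scaled CPM of the 6 family 5p features and the 4 family 3p features in each sample (black bars, mean ± SD, n = 3 per group); right, 3p reads as percent of both arms for the whole family and for miR-195a alone, each sample with its 95% Wilson interval. The 3p share of the whole family lies between 23.9% and 24.2% in the stress samples and between 40.1% and 52.2% in the normal samples.

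The 6 features under the filter held 10 to 46 reads over all samples and at most 12 in any of them. miR-322-3p, the arm opposite the X-linked guide miR-322-5p, had 12, 11 and 8 reads in stress samples, against 2, 1 and 12 reads in normal samples. That was 8.91, 5.82 and 5.76 CPM in stress samples, against 2.39, 1.32 and 4.56 CPM in normal samples, without overlap. The narrowest margin, between stress replicate 3 and normal replicate 3, rested on only 8 and 12 reads. Tested with no filter over 775 miRNAs, miR-322-3p was at 1.10 ± 0.81 (SE) on the log2 scale and did not pass (edgeR adjusted p = 0.55; 6.32% of all were called there, 2.45% higher and 3.87% lower). Over all samples miR-322-3p held 46 reads and its guide miR-322-5p 10. The guide had 0, 3 and 5 reads in stress samples, against 0, 1 and 1 in normal samples. miR-15b-3p had 0, 5 and 5 reads in stress samples, against 5, 0 and 10 in normal samples.

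miR-15a-5p, which shares the Dleu2 intron with Mir16-1, was nearly undetected. It had 3, 4 and 0 reads in stress samples, against 3, 1 and 0 in normal samples. The 0 in stress replicate 3 allows up to 2.97 reads in 1000000 miRNA reads and the 0 in normal replicate 3 up to 0.978, taking 3 reads as the limit of a count of 0. miR-16-1-3p, from the opposite arm of Mir16-1, had 2, 4 and 1 reads in stress samples, against 0, 0 and 4 in normal samples.

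The miRNAs whose levels ran most like the leading guide strands over the 6 samples are given as a description, since the points share libraries, depth and group. For miR-16-5p these were miR-150-5p, a lymphocyte miRNA (Pearson r = 0.98 of log2 CPM, n = 6), miR-34c-3p, the minor arm of a germ cell miRNA (r = 0.95), and miR-1291 (r = 0.94). miR-150-5p stood at 140.3, 193.6 and 302.3 CPM in stress samples, against 56.2, 39.5 and 161.0 CPM in normal samples. For miR-15b-5p they were miR-199b-5p, a stromal miRNA (r = 0.98), miR-3473e (r = 0.98) and miR-3068-3p (r = 0.92). Within the family, miR-15b-5p and miR-16-5p ran together more loosely (r = 0.54), and miR-16-5p ran against miR-195a-3p (r = −0.89).

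Related miRNAs were few. Of the offset-seed miRNAs miR-103 and miR-107, whose seed is the family's shifted by a base, only miR-103-3p was tested. It stood at 455.9, 463.9 and 503.8 CPM in stress samples, against 199.8, 287.0 and 293.8 CPM in normal samples, and did not pass (0.87 ± 0.27 SE, edgeR adjusted p = 0.051). The X-linked neighbours of Mir322 (miR-503, miR-351, miR-542, miR-450a and miR-450b) gave 9 features, of which 1 was tested. It was miR-351-5p, at −0.33 ± 0.35 (SE, edgeR adjusted p = 0.54). miR-503-5p, from the hairpin beside Mir322, had 4, 5 and 9 reads in stress samples, against 0, 1 and 7 in normal samples.

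Markers of other cell types are given because most members are widely expressed in somatic cells. Red blood cell markers had 0 of 3 tested features past the threshold in edgeR, and the sum of their 6 features ranged from 195.0 to 634.8 CPM in stress and from 396.7 to 1318 CPM in normal samples. Their median log2 fold change of −1.47 was that of miR-486a-5p/miR-486b-5p (± 0.53 SE). The others were miR-486a-3p at −1.76 ± 0.69 and miR-451a at −0.18 ± 0.58 (SE), so the median rested on miR-486. miR-486a-5p/miR-486b-5p stood at 529.4, 249.7 and 168.4 CPM in stress samples, against 1124, 1181 and 321.9 CPM in normal samples. miR-451a stood at 85.4, 119.0 and 13.7 CPM in stress samples, against 112.4, 77.7 and 60.4 CPM in normal samples. The log2 fold change of miR-16-5p was 0.84, and the part of red blood cells in it was not tested.

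Of the leukocyte markers 0 of 5 tested passed in edgeR (median 0.87, 3 positive). Their 8 features summed to 1052 to 1377 CPM in stress and 518.0 to 948.3 CPM in normal samples, without overlap. Most of the sum was miR-146a-5p, at 880.5, 1003 and 1021 CPM in stress samples, against 407.9, 455.4 and 728.1 CPM in normal samples. The tested members had mixed signs, with log2 fold changes of 2.09 ± 0.68 for miR-223-3p, 1.27 ± 0.49 for miR-150-5p, 0.87 ± 0.29 for miR-146a-5p, −0.69 ± 0.48 for miR-223-5p and −0.76 ± 0.53 for miR-142a-3p (SE). Of the smooth muscle, stromal and endothelial markers 2 of 8 rose in edgeR, miR-145a-5p at 1.96 ± 0.35 (adjusted p = 0.0072) and miR-199a-3p/miR-199b-3p at 1.29 ± 0.30 (adjusted p = 0.017), where 2.54% of all tested miRNAs were called higher. These 11 features summed to 7251 to 8006 CPM in stress and 3476 to 6751 CPM in normal samples (median of the tested 0.52). Most of that sum was miR-143-3p, at 6088, 7016 and 6820 CPM in stress samples, against 2860, 6142 and 5142 CPM in normal samples. Its groups overlapped and it did not pass (0.49 ± 0.28 SE, edgeR adjusted p = 0.24). Epithelial markers had 0 of 7 past the threshold (median 0.38), and their 9 features summed to 21858 to 24848 CPM in stress and 18095 to 21980 CPM in normal samples, with overlap. Of the male germ cell markers 3 of 18 fell in edgeR and 0 rose, where 10.2% of all tested miRNAs were called lower. miR-871-3p was at −1.40 ± 0.31 (SE, edgeR adjusted p = 0.016) and miR-743b-5p at −1.34 ± 0.36 (SE, edgeR adjusted p = 0.032). The shared feature miR-465a-3p/miR-465b-3p/miR-465c-3p was at −1.31 ± 0.38 (SE, edgeR adjusted p = 0.044). The median of the 18 was −0.24, and 8 of the 18 were positive. The sum of the 24 features was 5173 to 6963 CPM in stress and 7873 to 12934 CPM in normal samples. The most abundant of them, miR-881-3p, stood at 2754, 3015 and 2109 CPM in stress samples, against 4324, 6825 and 3644 CPM in normal samples. No list had a feature at 0 in all samples. The summed leukocyte and stromal markers lay higher, and the summed germ cell markers lower, in every stress sample than in every normal sample, while single members of the leukocyte and germ cell lists had both signs. The part of these cell types in the family's values was not tested.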

How the data were processed

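Small RNA of cauda epididymal sperm was measured in 3 stress and 3 normal samples, grouped by the labels' disease state and numbered by their titles. The authors deposited expected counts per mature miRNA; Bowtie is named in the submitters' processing notes, but no source used here gives its version, the build, any read filter or how reads were counted. The deposited piRNA and tsRNA tables hold RPM and were used only to estimate the total of the 3 tables from the step of their values. After rounding, expected counts went into edgeR's quasi-likelihood test (edgeR 4.0.16, R 4.3.3; glmQLFit and glmQLFTest, TMM scaling, features kept by filterByExpr at its minimum count of 10), with Benjamini-Hochberg adjustment over all 236 miRNAs tested and a threshold of 0.05. Fold changes are stress over normal. In edgeR an SE is the size of the log2 fold change divided by the square root of F. In limma-voom it is the size of the log2 fold change divided by that of t, and DESeq2 gave its own SE. Shares were tested with an exact two-sided permutation test. Alternatives were RLE scaling, DESeq2 1.42.0, limma-voom (limma 3.58.1), other library totals, other filters, a replicate block and leaving out each sample. The edgeR, DESeq2 and limma-voom models were run on simulated counts with equal numbers of raised and lowered miRNAs. The simulation was not set to copy the shift between groups in TMM factors, so it cannot decide between the scalings. The members, lists and tests were chosen with earlier results of these data known. All family features are named, and of each list up to 3 features, called ones first and then by abundance; miR-503-5p, the remaining tested leukocyte markers and miR-881-3p were named after their values were seen. The 3 tested miRNAs most correlated with each of the leading 2 guide strands are named. Only the arms with a row in the miRNA table were analysed here.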

Additional observations from a re-analysis of the deposited data

How the results depend on the processing

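With 3 samples per group and 67 to 287 family reads per sample, 4 of 10 family features could be tested. The count of family features past the threshold was 0, and it was 1 with RLE scaling, DESeq2, no filter or the total outside let-7 and miR-148a-3p as library size, and 2 with the miRNA total. It ranged from 0 to 1 when each sample was left out, the 1 without stress replicate 2. In that fit 26 of all 236 miRNAs were called, 7 higher and 19 lower. With a minimum count of 50 no family feature could be tested. The single feature called was miR-15b-5p, at 1.78 (adjusted p = 0.048 in edgeR) with the total outside let-7 and miR-148a-3p and at 1.61 (adjusted p = 0.015 in edgeR) with no filter. miR-195a-3p reversed to 0.053 with the miRNA total, where the median over all tested miRNAs was 0.76, with 96 called higher and 10 lower. Which scaling is nearer the truth was not tested. Over all 14 alternatives miR-15b-5p ranged from 1.07 to 2.34, miR-16-5p from 0.60 to 1.56 and miR-195a-5p from 0.01 to 1.10 on the log2 scale. The count over all miRNAs was 30, 44 with RLE scaling, 47 with DESeq2 and 106 with the miRNA total. It was 33 with the total outside let-7 and miR-148a-3p, 6 with the total of the 3 tables and 49 with no filter. When each sample was left out it was 19 to 57 (19 without stress replicate 3, 57 without normal replicate 3). The difference in family share ranged from 0.00874 to 0.0117 percentage points, that in miR-16-5p share from 5.30 to 13.2 and that in 3p share from −23.5 to −17.4 when each sample was left out, and that within miR-195a from −22.9 to −11.3, the smallest without normal replicate 2. Deviations from the group means were weakly correlated between samples with the same replicate number (r = 0.11, −0.21 and 0.12 for numbers 1 to 3). With 3 samples per group this cannot settle whether the numbers pair them, and the labels do not say. With the replicate block edgeR called 28 miRNAs and 0 of the 4 family features, with miR-15b-5p at 1.56 (adjusted p = 0.14). For the shares, the block gave an exact sign-flip p of 0.25 for the family share and the 3p share, the smallest that 3 pairs allow.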
